A study of Mus musculus with 9 samples.

Results

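The major urinary protein (Mup) genes were followed across RNA sequencing of livers from Swiss mice aged 10-12 weeks. The members were the rows of the gene table whose symbol begins with Mup and that had a value above 0 in at least 1 library. They numbered 41 of 25781 rows, namely 21 protein-coding genes and 20 pseudogenes (Mup-ps), and no listed Mup row was left out by the rule. The rule used the symbol and a value above 0, not a difference between groups. In the GENCODE M21 annotation of another mouse build (GRCm38), 40 of the 41 lie on chromosome 4, and Mup-ps22 lies on chromosome 11. The 9 libraries fall into 3 groups of 3. The first received β-CYP at 40 mg/kg plus 50 µg/kg of sodium selenite (Na2SeO3) and is called the repair group in the design text. The second received the same dose of β-CYP alone and is called the liver injury group. The third is the control group, for which the labels name no agent or vehicle. What β-CYP stands for, the sex of the mice and the time of sampling are not in the labels. Nor do they state that each library comes from its own mouse, so the p-values reflect differences between libraries that may be technical.

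Mup proteins are small lipocalins, secreted carriers that fold into a barrel and hold volatile pheromones and other small hydrophobic molecules. In the mouse the liver secretes them into the blood, the kidney passes them into the urine, and there they mark scent. Liver Mup expression is higher in males than in females, and it is driven by pulses of growth hormone acting through the transcription factor STAT5b, with further input from androgens, thyroid hormone and glucocorticoids. Most of the coding genes form a young cluster of near-identical copies, flanked by older genes such as Mup3, Mup20 and Mup21. Mup20 encodes darcin, a male pheromone that females learn to recognise.

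How similar the copies are decides which rows can be read singly, so the sequences come first. Each row's GENCODE transcript was cut into all its stretches of 50 bases, and each stretch was looked for in all other annotated transcripts on both strands. Linking rows that share at least 50% of their stretches put 15 coding genes into a single group: Mup1, Mup2, and Mup7 to Mup19. Their coding sequences were 98.3% to 99.8% identical over the 105 pairs. From 0% to 21.9% of the stretches of these 15 genes were their own, with 0% for Mup2, Mup15 and Mup19. Mup20 was linked with Mup-ps19, which shares 422 of its stretches with Mup20, or 89.8% of them. Mup3 and Mup21 stood alone, with 84.4% and 80.7% of stretches of their own, and were 82.1% to 83.5% and 83.6% to 84.9% identical to the 15 genes in the coding sequence. A window of 60 coding bases shows these groups, with capitals at the bases that differ from Mup7. Mup15 and Mup13 do not differ from Mup7 in it, Mup20 and Mup-ps19 differ at the same 9 bases, and Mup3 and Mup21 at the same 13.
Mup7: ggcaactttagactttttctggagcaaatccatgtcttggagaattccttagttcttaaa
Mup15: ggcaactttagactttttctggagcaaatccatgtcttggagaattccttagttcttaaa
Mup13: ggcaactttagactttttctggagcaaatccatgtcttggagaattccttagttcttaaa
Mup20: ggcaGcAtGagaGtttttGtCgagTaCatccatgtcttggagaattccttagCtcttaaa
Mup-ps19: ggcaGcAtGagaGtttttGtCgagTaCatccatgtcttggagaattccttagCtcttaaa
Mup3: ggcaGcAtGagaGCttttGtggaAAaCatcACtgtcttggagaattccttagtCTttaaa
Mup21: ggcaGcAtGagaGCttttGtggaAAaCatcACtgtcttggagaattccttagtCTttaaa

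RefSeq promoter windows (GRCm38.p6, 250 bases before to 50 after each start) were at hand for 14 of the 21 coding members. The core promoter element searched for as TATATAA occurred on either strand in 13 of these 14 windows, Mup7 being the exception, against 3.24% of all 32851 windows. Neither TTCNNNGAA, the core of a STAT5 site, nor the consensus element of the glucocorticoid receptor occurred in any of the 14, against 8.3% and 0.475% of all windows. A missing match says only that these letters are not in this window. The stretch that ends in this element, in capitals, is printed for Mup21, the row that rose most, and Mup3, which changed little, and for Mup15, Mup17 and Mup10, whose rows fell by unlike amounts. Mup21 and Mup3 were 91% identical over it, and each was about as far from Mup15, at 70.1% for Mup21 and 70.7% for Mup3. Mup17 and Mup10 were 97.6% and 91.2% identical to Mup15.
Mup3, chr4:62087322-62087455, minus strand: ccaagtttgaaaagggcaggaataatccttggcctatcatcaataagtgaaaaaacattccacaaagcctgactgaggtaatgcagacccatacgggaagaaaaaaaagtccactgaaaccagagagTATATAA
Mup21, chr4:62150843-62150973, minus strand: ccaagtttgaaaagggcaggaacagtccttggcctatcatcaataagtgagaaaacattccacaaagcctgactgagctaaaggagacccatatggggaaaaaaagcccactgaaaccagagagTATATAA
Mup15, chr4:61439723-61439889, minus strand: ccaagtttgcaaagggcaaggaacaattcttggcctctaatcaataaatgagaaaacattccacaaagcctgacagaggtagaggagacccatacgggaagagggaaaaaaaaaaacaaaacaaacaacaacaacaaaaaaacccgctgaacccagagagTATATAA
Mup17, chr4:61595851-61596019, minus strand: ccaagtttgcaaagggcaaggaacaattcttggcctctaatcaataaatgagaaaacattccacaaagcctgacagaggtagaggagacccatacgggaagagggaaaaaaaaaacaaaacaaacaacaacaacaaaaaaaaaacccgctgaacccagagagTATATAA
Mup10, chr4:60582179-60582348, minus strand: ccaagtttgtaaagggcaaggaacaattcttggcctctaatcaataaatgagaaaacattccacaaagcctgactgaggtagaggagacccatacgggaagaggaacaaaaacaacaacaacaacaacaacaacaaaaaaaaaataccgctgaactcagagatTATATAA

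Values are scaled counts: read counts divided by a library's factor, chosen by the authors so that the typical gene is equal between libraries. The libraries held 28630269 to 36029560 reads each. Transcripts of 4 Y-linked genes were present in all 9 libraries, while Xist, which is expressed from the inactive X of females, had at most 12 reads. Hepatocyte markers summed to 3041130 to 3084030 scaled counts in selenite plus β-CYP, 3774220 to 3871830 in β-CYP and 3151520 to 3301280 in control. Alb alone gave 1935700 to 1963400, 2476200 to 2572500 and 2083200 to 2168300 of these, in the same order. Digestive enzymes of the pancreatic acinar cell set the selenite libraries apart. Their 12 markers summed to 38147 to 39187 reads there, against 1160 to 1255 reads in β-CYP and 977 to 1079 in control, where Pnlip, Cpa1, Cpb1, Cela3b, Try4 and Prss2 were at 0 in all 6 libraries and Try5 was also at 0 in control. In turn, 7 spermatid markers summed to at most 5 reads in selenite plus β-CYP and 8 in β-CYP, against 259 to 316 in control. Neutrophil markers summed to 619 to 719 reads in selenite plus β-CYP, 407 to 472 in β-CYP and 75 to 85 in control. Erythroid markers summed to 21400 to 22004 scaled counts in selenite plus β-CYP, 24774 to 25792 in β-CYP and 29021 to 29301 in control. Kupffer cell markers summed to 13666.6 to 13801.7 scaled counts in selenite plus β-CYP, 10887.3 to 11003.8 in β-CYP and 10740.5 to 11149.1 in control. The β-CYP and control sums overlapped. The sum of 5 cholangiocyte markers was highest in β-CYP, with 2039 to 2094 reads in selenite plus β-CYP, 6353 to 7282 in β-CYP and 1972 to 2401 in control. Only 1 of the 5 rose in β-CYP against control, and 4 were not called. Likewise, 1 fell in selenite plus β-CYP against β-CYP, and 4 were not called. Of the 10 hepatocyte markers, 10 fell in selenite plus β-CYP against β-CYP, where 12.3% of all genes fell. With equal library totals 4 of them fell, with quantile normalization 5 and with equal medians 10. In β-CYP against control, 4 of the 10 rose and 2 fell, where 7.72% of all genes rose and 8.58% fell. These 2 counts were 3 and 0 with equal library totals, 3 and 1 with quantile normalization, and 4 and 2 with equal medians. These marker sums move with the groups, and their part in the Mup results was not tested. In bulk liver, fewer hepatocytes and less RNA per hepatocyte cannot be told apart.

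Mup RNA was lower in the livers given selenite plus β-CYP than in those given β-CYP alone, and lower in both than in control livers. Summed over the 41 rows, the scaled counts were 430204, 395196 and 457714 in selenite plus β-CYP, 791505, 803172 and 748581 in β-CYP, and 1016732, 1024780 and 1051084 in control. No library of any group overlapped with another group. The ratio of group means was 0.548 for selenite plus β-CYP over β-CYP, 0.415 for selenite plus β-CYP over control and 0.758 for β-CYP over control. As a share of all reads, the family made up 1.42%, 1.30% and 1.49% of the libraries of selenite plus β-CYP, 2.37%, 2.40% and 2.25% of those of β-CYP, and 3.17%, 2.84% and 3.21% of those of control. At this depth the 95% Wilson interval, which covers counting error only, ran from 1.29% to 1.30% in the selenite library with the lowest share. The sums do not depend on how counted reads were divided between the copies, but reads dropped because they match several genes would be missing from them. No test is given for them, since the family was chosen with results of these data known.

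**Figure D1:**
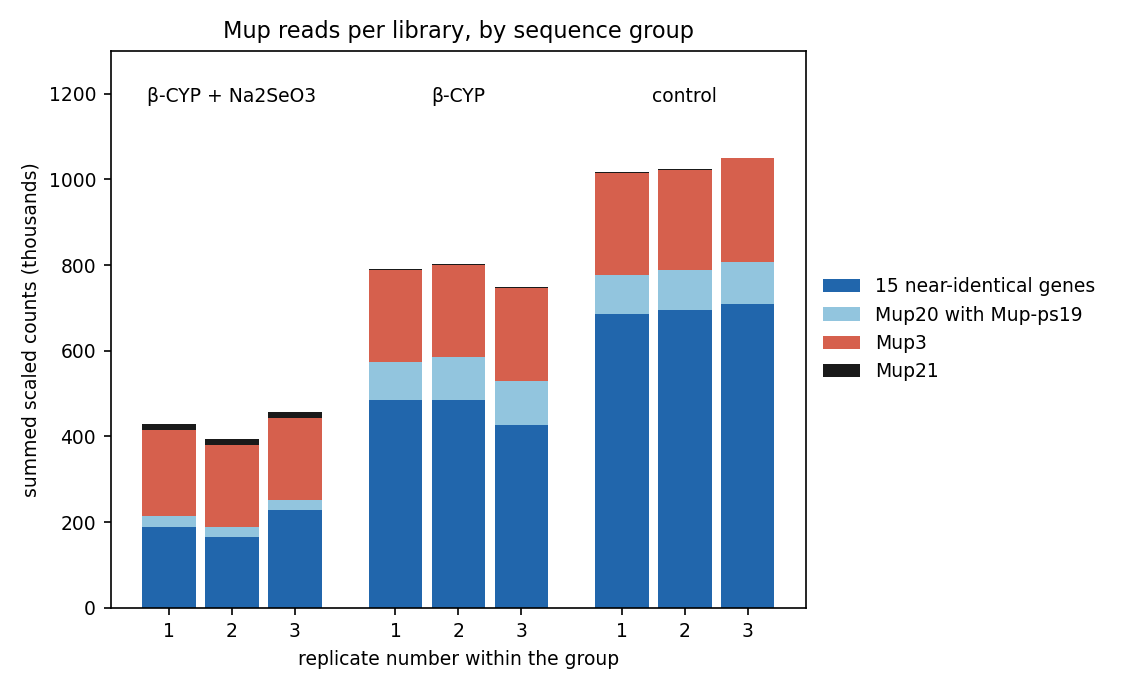
Summed scaled counts of the Mup rows (vertical axis, in units of 1000) in each of the 9 libraries (bars), stacked by sequence group. The segment of 15 near-identical genes shrinks most in counts, to 166299 to 228724 in selenite plus β-CYP, while the Mup3 segment stays between 191018 and 240744 in all libraries.

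The loss was uneven within the family, and in counts the near-identical cluster carried most of it. The 15 genes together had 188949, 166299 and 228724 scaled counts in selenite plus β-CYP, 484537, 485476 and 427567 in β-CYP, and 685433, 694754 and 710051 in control. The ratio of means was 0.418 for selenite plus β-CYP over β-CYP, 0.279 over control, and 0.669 for β-CYP over control. The cluster's share of all Mup counts was 45.3% ± 4.1 in selenite plus β-CYP, 59.6% ± 2.2 in β-CYP and 67.6% ± 0.19 in control (SD, n = 3 each). Mup3 took 45.6% ± 3.5 of the Mup counts in selenite plus β-CYP, 27.6% ± 1.2 in β-CYP and 23.0% ± 0.29 in control (SD, n = 3 each). In selenite plus β-CYP a single gene thus gave about as many counts as the 15 copies together.

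Single rows were tested with limma on log2(scaled count + 1), and an adjusted p under 0.05 over all 20145 genes tested is called a rise or a fall. Of the 41 rows, 36 reached the minimum mean of 1 scaled count, 20 coding and 16 pseudogenes. In selenite plus β-CYP against β-CYP, 22 Mup rows fell and 1 rose, where 12.3% of all genes fell and 11.6% rose. Either way, 23.9% of all genes were called. The median log2 difference was -1.62 over the 36 rows and 0.017 over all genes. In selenite plus β-CYP against control, 24 fell and 1 rose, where 14.5% of all genes fell and 14.4% rose (28.9% in all), with medians of -1.69 and 0.027. In β-CYP against control, 9 fell and 2 rose, where 8.58% of all genes fell and 7.72% rose (16.3% in all), with medians of -0.43 and -0.0013. The 3 comparisons share libraries, so their counts are not independent of each other. Libraries did not overlap, with selenite plus β-CYP below, for 25 of the 36 rows against β-CYP and 26 against control, where 18.5% and 20.4% of all genes did so. With β-CYP below control they did not overlap for 15 rows, against 16.2% of all genes, and above for 4, against 15.4%. With selenite plus β-CYP above, they did not overlap for 1 row in either comparison, against 19.3% and 21.4% of all genes. The balance of calls over all genes depends on the scaling. Of the genes called in selenite plus β-CYP against β-CYP, 48.6% were higher, against 70.7% with equal library totals and 28.4% with equal medians, and against control the 3 values were 49.9%, 69.2% and 28.6%.

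**Figure D2:**
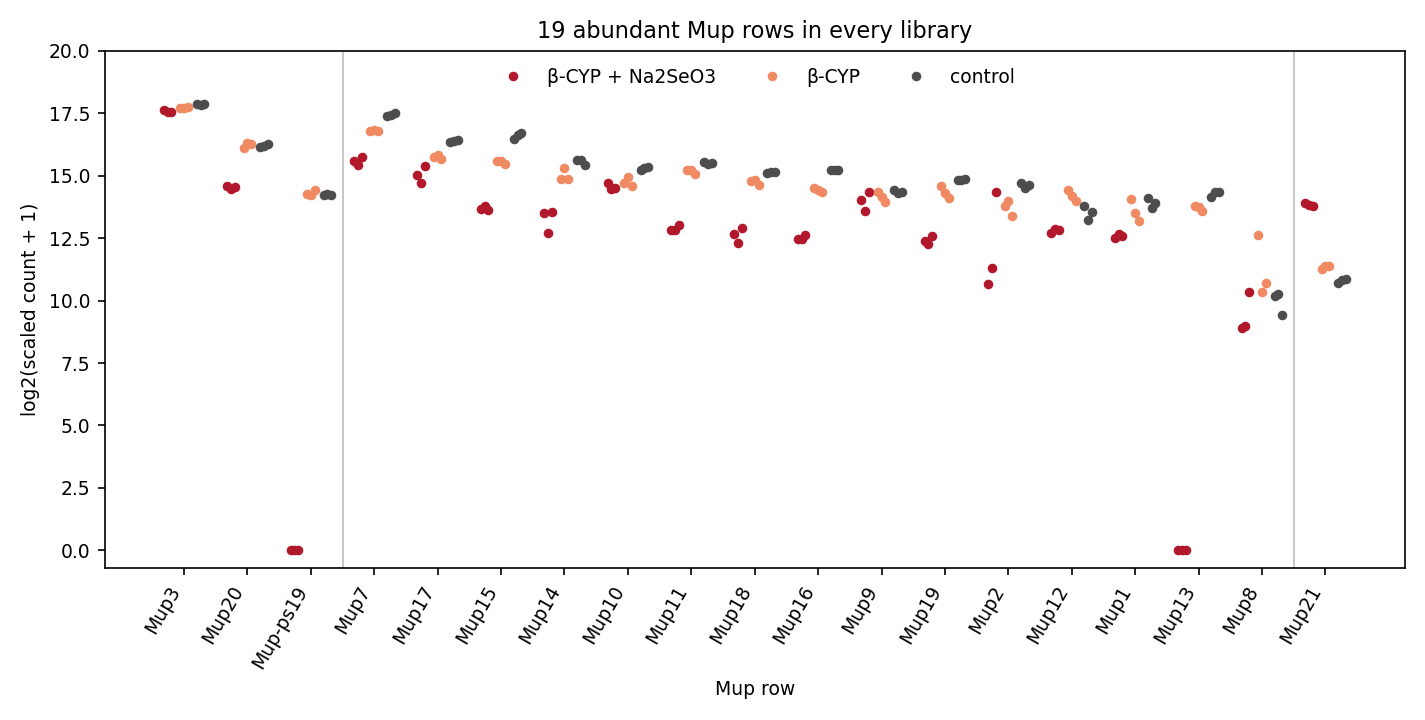
log2(scaled count + 1) (vertical axis) of 19 abundant Mup rows (horizontal axis) in each library (points), with the vertical lines setting off the 15 near-identical genes. Mup13 and Mup-ps19 are at 0 in all 3 libraries of selenite plus β-CYP, Mup2 is spread from 1606 to 20648 scaled counts there, and Mup21 is the only one of these rows whose libraries in that group lie above those of both other groups.

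Within the cluster, Mup7 was the row with the most counts, followed in control by Mup15 and Mup17. Mup7 had 48676, 44346 and 54269 scaled counts in selenite plus β-CYP, 113624, 117670 and 111855 in β-CYP, and 171476, 178295 and 186976 in control. The groups did not overlap, and its log2 difference was -1.22 ± 0.063 (SE) for selenite plus β-CYP minus β-CYP and -0.64 ± 0.063 for β-CYP minus control (limma, adjusted p = 5.3e-07 and 7.7e-05). Mup15 was lower in each group than in the next, with 13076, 14089 and 12471 scaled counts in selenite plus β-CYP, 49441, 49830 and 45690 in β-CYP, and 91869, 101975 and 105647 in control. It was 3.66-fold lower in selenite plus β-CYP than in β-CYP, and 2.06-fold lower in β-CYP than in control (limma, adjusted p = 1.8e-08 and 1.8e-06). Mup17, whose printed promoter stretch is 97.6% identical to that of Mup15, had 33229, 26875 and 42366 scaled counts in selenite plus β-CYP, 54322, 57440 and 51681 in β-CYP, and 83266, 86220 and 87180 in control. It was 1.62-fold lower in selenite plus β-CYP than in β-CYP (limma, adjusted p = 0.0033), a call that quantile normalization ended.

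Other copies of the cluster split into rows that fell in selenite plus β-CYP and rows that did not pass the test there. Mup11, Mup18, Mup16, Mup19 and Mup14 were 3.41-fold to 4.82-fold lower there than in β-CYP, each a fall by limma (adjusted p between 4.0e-09 and 1.9e-04). Mup11, for instance, had 7343, 7257 and 8356 scaled counts in selenite plus β-CYP, 38114, 38023 and 34396 in β-CYP, and 47333, 44943 and 46164 in control. Mup10 behaved otherwise, with 26407, 22409 and 23341 scaled counts in selenite plus β-CYP, 26687, 31845 and 24389 in β-CYP, and 38373, 40036 and 41558 in control. Its selenite and β-CYP libraries overlapped (limma log2 difference -0.20 ± 0.0913, adjusted p = 0.168), and both groups were below control. That difference was called with equal medians (adjusted p = 0.0216) and turned to 0.11 with quantile normalization (adjusted p = 0.433). Mup9 was not called in any of the 3 comparisons, although against control it was called with equal medians and without replicate 3 of selenite plus β-CYP (limma, adjusted p = 0.038 and 0.0276), with 12232 to 20713 scaled counts in selenite plus β-CYP, 15706 to 20834 in β-CYP and 20263 to 21913 in control. Mup1 fell 2.03-fold in selenite plus β-CYP against β-CYP (limma, adjusted p = 0.0031), and its β-CYP and control libraries overlapped.

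Mup12 was the copy that rose in β-CYP. It had 6653, 7397 and 7324 scaled counts in selenite plus β-CYP, 22277, 18543 and 16422 in β-CYP, and 14299, 9600 and 11806 in control. The β-CYP libraries lay above all control libraries and the selenite libraries below them, with a log2 difference of 0.69 ± 0.14 for β-CYP minus control and -0.72 ± 0.14 for selenite plus β-CYP minus control (limma, adjusted p = 0.0087 and 0.0038). Of its stretches 14.6% are its own and 715 are shared with Mup1, and how the counting divided reads from such stretches was not stated.

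In Mup2 and Mup8 a single library set the values. Mup2 had 1606, 2522 and 20648 scaled counts in selenite plus β-CYP, 14228, 16287 and 10783 in β-CYP, and 26932, 23230 and 24983 in control. Replicate 3 of selenite plus β-CYP lay above all β-CYP libraries, while the other replicates of that group lay far below them. The log2 difference of selenite plus β-CYP minus β-CYP was -1.63 ± 0.75 with all libraries and -2.75 without replicate 3 (limma, adjusted p = 0.161 and 4.9e-05). Mup8 had 482, 511 and 1292 scaled counts in selenite plus β-CYP, 6401, 1305 and 1671 in β-CYP, and 1172, 1218 and 686 in control, so that replicate 1 of β-CYP stood apart. Of the 50-base stretches, 0% were a row's own for Mup2 and 6.16% for Mup8. The fall of Mup8 in selenite plus β-CYP against β-CYP (limma, adjusted p = 0.0495) was lost under 11 of 17 alternatives. In selenite plus β-CYP, the coefficient of variation was 130% for Mup2 and 16.2% for the sum of the 15 genes. The median over the 15 rows was 10.6% there, so the sum varied more than the typical row. In β-CYP the coefficient was 90.9% for Mup8, 13.8% for the median of the rows and 7.12% for the sum.

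Mup13 and Mup-ps19 were listed at 0 in every library of selenite plus β-CYP. Mup13, a copy of the cluster, had 14096, 13608 and 12138 scaled counts in β-CYP and 18202, 20781 and 20739 in control, with a log2 difference of -0.58 ± 0.0761 for β-CYP minus control (limma, adjusted p = 5.4e-04). With 3 counts per library in place of 0, Mup13 was at least 4741-fold lower in selenite plus β-CYP than in β-CYP and at least 7106-fold lower than in control. Mup-ps19 had 19487, 19386 and 21771 scaled counts in β-CYP and 19241, 19843 and 19283 in control, which overlapped, and was at least 7216-fold and at least 6945-fold lower in selenite plus β-CYP. They were the only 2 genes of the whole table with at least 1000 reads in each library of the other groups and 0 in all 3 of selenite plus β-CYP. Gm10260 was the only gene with that pattern for β-CYP, and none had it for control. Mup13 has 6.39% of stretches of its own and Mup-ps19 has 10.2%, and the rows they share most stretches with, Mup19 and Mup20, stayed above 0 in the same libraries. The part that the counting of shared reads has in these zeros was not tested. The sequences are those of the annotation, and whether the mice of each group carry the same copies was not tested either.

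Mup20, the gene of darcin, fell in selenite plus β-CYP and was not called in β-CYP against control. It had 24887, 22707 and 23594 scaled counts in selenite plus β-CYP, 70060, 80629 and 78834 in β-CYP, and 73110, 74816 and 78576 in control. The selenite libraries lay far below the others, which overlapped, and the log2 difference was -1.69 ± 0.054 against β-CYP and 0.017 ± 0.054 for β-CYP minus control (limma, adjusted p = 1.8e-08 and 0.892). Added to Mup-ps19, with which it shares sequence, the pair had 24887, 22707 and 23594 scaled counts in selenite plus β-CYP, 89548, 100016 and 100605 in β-CYP, and 92351, 94659 and 97859 in control. That is a ratio of means of 0.245 for selenite plus β-CYP over β-CYP, 0.250 over control, and 1.02 for β-CYP over control. The 15 near-identical genes, in contrast, had a ratio of 0.669 for β-CYP over control, with no overlap between the libraries.

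Mup3 was the most abundant row of the family in all 9 libraries and changed little. It had 201042, 191333 and 191018 scaled counts in selenite plus β-CYP, 214450, 214476 and 217235 in β-CYP, and 236824, 232978 and 240744 in control. The groups did not overlap, and limma called a fall in each comparison, of -0.15 ± 0.022 for selenite plus β-CYP minus β-CYP, -0.28 ± 0.022 against control and -0.14 ± 0.022 for β-CYP minus control on the log2 scale (adjusted p = 8.0e-04, 7.0e-06 and 0.0019). With equal library totals none of these 3 calls remained, the log2 differences being -0.021, -0.15 and -0.13 (adjusted p = 0.86, 0.0971 and 0.224), and quantile normalization turned the first to 0.083 (adjusted p = 0.194) and moved the third to -0.54. Per kb of its transcript, Mup3 stood at 197630 ± 5791 scaled counts in selenite plus β-CYP, 218890 ± 1626 in β-CYP and 240700 ± 3947 in control (SD, n = 3 each). The next level per kb was that of Mup7, at 52963 ± 5367, 123390 ± 3216 and 193010 ± 8380 in the same order of groups. In control, Mup15, Mup17 and Mup20 followed with 107920 ± 7713, 92293 ± 2200 and 81358 ± 3014 scaled counts per kb, and neighbours in this order lay apart by more than their SDs. The SDs cover the spread between libraries only. Of the stretches, 3.6% are a row's own for Mup7, 0% for Mup15, 21.9% for Mup17 and 49.5% for Mup20. The part that the counting of shared reads has in this order was not tested.

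Mup21 moved the other way. It had 15200, 14717 and 14220 scaled counts in selenite plus β-CYP, 2469, 2653 and 2652 in β-CYP, and 1660, 1789 and 1885 in control. Each group lay above the next without overlap. The row was 5.68-fold higher in selenite plus β-CYP than in β-CYP, 8.28-fold higher than in control, and 1.46-fold higher in β-CYP than in control (limma, adjusted p = 1.5e-09, 2.0e-10 and 6.4e-05). It is the only Mup row that rose in the selenite group, and its call and direction held under every alternative run. Its share of Mup counts was 3.45% ± 0.32 in selenite plus β-CYP, 0.332% ± 0.021 in β-CYP and 0.172% ± 0.0082 in control (SD, n = 3 each). Mup3 and Mup21 are each other's closest row in the family by shared stretches, and the printed promoter stretches of these 2 genes are 91% identical.

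**Figure D3:**
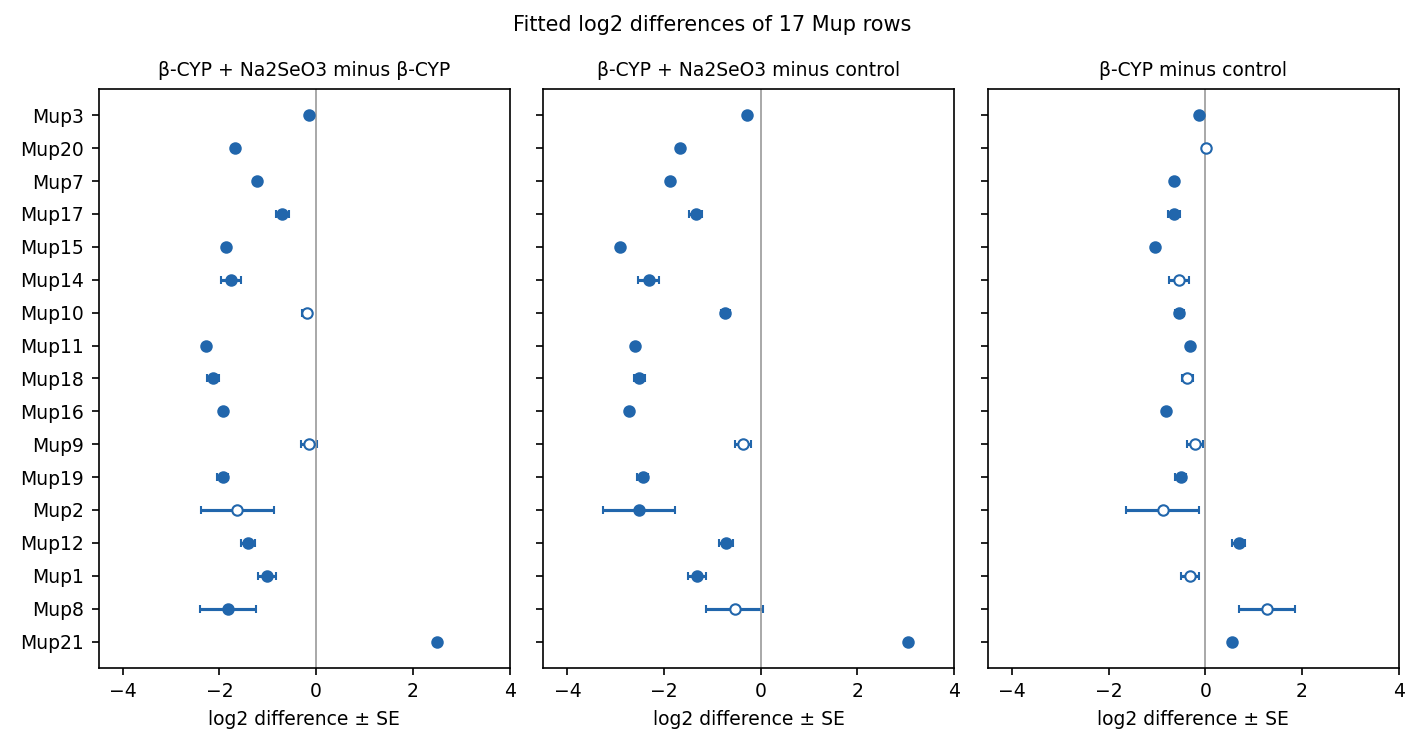
Fitted log2 difference with its SE (horizontal axes) for 17 Mup rows in the 3 comparisons, where filled points passed limma at an adjusted p under 0.05 and open points did not. Mup13 and Mup-ps19 are left out because they are at 0 in selenite plus β-CYP. Mup21 sits at 2.51 and 3.05 in the first and second panels, where no other point lies right of 0.

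The remaining members were faint. The coding genes Mup4, Mup5 and Mup6 summed to 0, 1.84 and 14.4 scaled counts in selenite plus β-CYP, 0, 5.11 and 11.1 in β-CYP, and 5.06, 18.1 and 24.0 in control. These 3 genes were near the limit of detection in all groups. Apart from Mup-ps19, the pseudogenes summed to 127, 138 and 144 scaled counts in selenite plus β-CYP, 501, 547 and 511 in β-CYP, and 458, 583 and 520 in control. Mup-ps17 gave most of this, with 69.1, 79.3 and 74.7 scaled counts in selenite plus β-CYP, 310, 359 and 335 in β-CYP, and 238, 356 and 298 in control, a fall of -2.15 ± 0.15 on the log2 scale against β-CYP (limma, adjusted p = 4.1e-06). Of its stretches, 45.0% are also in Mup17. Of the 16 pseudogenes tested, 8 fell in selenite plus β-CYP against β-CYP, 9 fell against control, and none was called in β-CYP against control, where 12.3%, 14.5% and 8.58% of all genes fell. Of these falls, those of Mup-ps7, Mup-ps15, Mup-ps16 and Mup-ps23 against β-CYP and of Mup-ps7, Mup-ps13 and Mup-ps15 against control were lost under some alternatives. Mup-ps10, Mup-ps28, Mup4, Mup-ps2 and Mup-ps11 were below a mean of 1 scaled count and were not tested.

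Genes of the growth hormone and STAT5 pathway, the main driver of Mup expression in liver, were lower in both treated groups in most of the listed members that were called. Of 16 genes tested, 7 fell and 2 rose in selenite plus β-CYP against β-CYP, 9 fell and 2 rose against control, and 9 fell and 1 rose in β-CYP against control, with median log2 differences of -0.10, -0.48 and -0.44. Over all genes, 12.3%, 14.5% and 8.58% fell in these comparisons. The median against β-CYP turned to 0.026 with equal library totals and was -0.23 with equal medians, where 9 fell. Ghr, the growth hormone receptor, had 8475, 8254 and 8416 scaled counts in selenite plus β-CYP, 12018, 12318 and 12058 in β-CYP, and 16935, 16561 and 16129 in control. It fell along the 3 groups without overlap, by 0.53 ± 0.025 on the log2 scale for selenite plus β-CYP against β-CYP and by 0.45 ± 0.025 for β-CYP against control (limma, adjusted p = 3.0e-07 and 1.7e-06). Igfals, the growth hormone-induced partner of IGF1 in the blood, had 1741, 1682 and 1803 scaled counts in selenite plus β-CYP, 2496, 2602 and 2632 in β-CYP, and 4847, 4910 and 5101 in control, also without overlap. Cish, an inhibitor of cytokine signalling that STAT5 induces, had 49.7, 59.0 and 51.7 scaled counts in selenite plus β-CYP, 111, 104 and 129 in β-CYP, and 260, 270 and 241 in control. These 3 genes had the same order of groups as the Mup sum, and a link between them was not tested.

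Socs2, another STAT5-induced inhibitor, had a different order. It had 120, 146 and 125 scaled counts in selenite plus β-CYP, 23.9, 24.5 and 39.7 in β-CYP, and 243, 232 and 245 in control. It was lowest in β-CYP, with log2 differences of 2.14 ± 0.20 for selenite plus β-CYP minus β-CYP and -3.02 ± 0.20 for β-CYP minus control (limma, adjusted p = 3.5e-05 and 4.9e-06). Socs3, an inhibitor induced by interleukin 6 and STAT3, was highest in β-CYP, with 603, 658 and 646 scaled counts in selenite plus β-CYP, 978, 939 and 1009 in β-CYP, and 306, 268 and 262 in control. Igf1 fell in both treated groups against control, by 0.54 ± 0.021 for selenite plus β-CYP and by 0.48 ± 0.021 for β-CYP on the log2 scale (limma, adjusted p = 5.5e-08 and 2.6e-07). Jak2 was not called in any comparison, and Stat5b fell in selenite plus β-CYP against control by 0.26 ± 0.056 (limma, adjusted p = 0.0060), a call that did not hold with equal library totals.

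**Figure D4:**
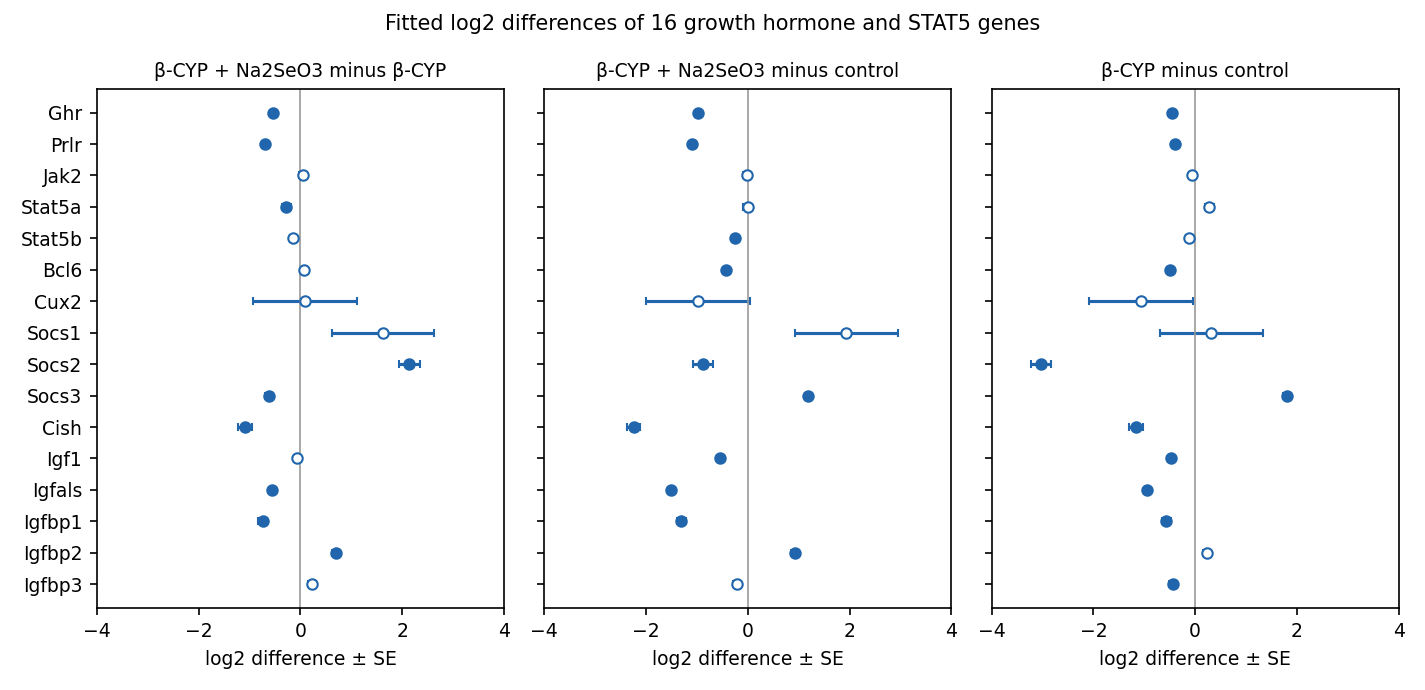
Fitted log2 difference with its SE (horizontal axes) for 16 growth hormone and STAT5 genes in the 3 comparisons, where filled points passed limma at an adjusted p under 0.05. Cish, Ghr and Igfals lie left of 0 in all panels, while Socs2 lies at 2.14 in the first panel and at -3.02 in the third.

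Among 18 hormone receptors and liver transcription factors, 6 fell and 1 rose in selenite plus β-CYP against β-CYP, 7 fell and 1 rose against control, and 5 fell and 4 rose in β-CYP against control, with medians of -0.10, -0.14 and 0.016. The falls numbered 5 against β-CYP and 3 against control with equal library totals, 10 in both with equal medians, and 6 and 5 with quantile normalization, and the median against β-CYP turned to 0.027 with equal totals. Over all genes, 12.3% fell and 11.6% rose in selenite plus β-CYP against β-CYP, and 14.5% fell and 14.4% rose against control. In β-CYP against control, 8.58% of all genes fell and 7.72% rose. Hnf4a, a master regulator of hepatocyte genes, had 16372, 16866 and 16965 scaled counts in selenite plus β-CYP, 26768, 25366 and 26969 in β-CYP, and 21673, 21718 and 21544 in control, so that it was highest in β-CYP. Zhx2, a zinc finger and homeobox factor known to set Mup levels in mouse liver, fell by 0.36 ± 0.090 in selenite plus β-CYP against β-CYP (limma, adjusted p = 0.0173), which did not hold with equal library totals (adjusted p = 0.165). Onecut1, a factor of liver-specific transcription, fell by 0.81 ± 0.14 in β-CYP against control (limma, adjusted p = 0.0037).

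Other male-biased liver genes give a measure of the sex-dependent programme to which Mup genes belong. Of 18 tested, 17 fell and 1 rose in selenite plus β-CYP against control, 14 fell and 1 rose in β-CYP against control, and 9 fell and 4 rose in selenite plus β-CYP against β-CYP, with medians of -0.77, -0.54 and -0.14. The balance of the last comparison turned with the scaling, to 7 lower and 5 higher with equal library totals, 13 and 3 with equal medians, and 7 and 8 with quantile normalization. Hsd3b5, a steroid-metabolising enzyme, had 2250, 2240 and 2273 scaled counts in selenite plus β-CYP, 2106, 1959 and 2177 in β-CYP, and 7165, 7209 and 7262 in control. Both treated groups were far below control, and the difference between them did not pass the test (limma log2 difference 0.12 ± 0.040, adjusted p = 0.0638). Elovl3, a fatty acid elongase, had 1394, 1358 and 1429 scaled counts in selenite plus β-CYP, 7125, 7219 and 7461 in β-CYP, and 5898, 5735 and 5766 in control. It was lowest in the selenite group and rose in β-CYP against control (limma, adjusted p = 9.8e-05). Cyp7b1, an oxysterol hydroxylase, had 18442, 18440 and 17918 scaled counts in selenite plus β-CYP, 10256, 10976 and 10800 in β-CYP, and 23054, 22814 and 22699 in control, and so had the order of groups seen for Socs2. Its fall in selenite plus β-CYP against control was not called with quantile normalization (limma log2 difference -0.041, adjusted p = 0.432). Of 18 female-biased genes tested, 5 fell and 3 rose in selenite plus β-CYP against β-CYP, 5 fell and none rose against control, and 2 fell and 2 rose in β-CYP against control. Among all genes tested, 12.3% fell and 11.6% rose in selenite plus β-CYP against β-CYP, and 14.5% fell and 14.4% rose against control. For β-CYP against control, these shares were 8.58% and 7.72%.

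Of 11 lipocalins tested outside the Mup family, 7 rose and none fell in β-CYP against control, 2 rose and 7 fell in selenite plus β-CYP against β-CYP, and 5 rose and 3 fell against control, with medians of 0.21, -0.19 and 0.092. Of all genes tested, 7.72% rose and 8.58% fell in β-CYP against control. In selenite plus β-CYP, 11.6% rose and 12.3% fell against β-CYP, and 14.4% rose and 14.5% fell against control. Among the 11 lipocalins, the falls against β-CYP numbered 4 with equal library totals and with quantile normalization. Against control, 5 rose and 1 fell with equal totals, and 4 rose and 4 fell with equal medians, where the median turned to -0.069. Lcn2, an acute phase lipocalin that binds bacterial siderophores, had 28557, 28631 and 29248 scaled counts in selenite plus β-CYP, 48484, 47651 and 48064 in β-CYP, and 4520, 5193 and 5548 in control. It was 9.48-fold higher in β-CYP than in control (limma, adjusted p = 5.5e-10). Obp2a, an odorant-binding protein, had 208, 227 and 235 scaled counts in selenite plus β-CYP, 775, 789 and 794 in β-CYP, and 193, 130 and 125 in control. Both genes were highest in β-CYP, without overlap with the other groups.

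Of 22 other abundant secreted proteins of the liver, 11 rose and none fell in β-CYP against control, 3 rose and 12 fell in selenite plus β-CYP against β-CYP, and 8 rose and 9 fell against control, with medians of 0.10, -0.18 and -0.11. The shares of all genes that rose and fell were 7.72% and 8.58% in β-CYP against control. They were 11.6% and 12.3% in selenite plus β-CYP against β-CYP, and 14.4% and 14.5% against control. The counts of the 22 proteins depended on the scaling. In selenite plus β-CYP, 3 fell against β-CYP and 0 against control with equal library totals, 17 and 12 with equal medians, and 6 and 4 with quantile normalization. In β-CYP against control, 10 rose and 3 fell with quantile normalization. Fga, a fibrinogen chain, rose by 0.34 ± 0.015 on the log2 scale in selenite plus β-CYP against β-CYP and by 1.03 ± 0.015 in β-CYP against control (limma, adjusted p = 1.9e-07 and 1.1e-10). Alb, albumin, fell by 0.38 ± 0.019 in selenite plus β-CYP against β-CYP and rose by 0.25 ± 0.019 in β-CYP against control (limma, adjusted p = 5.3e-07 and 1.8e-05). Both calls held with equal library totals and with equal medians, and neither held with quantile normalization. The fall of the 15 near-identical Mup genes, to a ratio of 0.418 against β-CYP, stayed between 0.382 and 0.498 under every scaling run.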

How the data were processed

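RNA was sequenced from 9 liver libraries. The deposited table holds log2 values of 25781 genes. HISAT, Cufflinks and mm9 are named per the submitters' processing notes, and no source used here gives versions, the annotation or the treatment of reads shared by several genes. Each value is log2(x + 1), with x a read count over a library factor. Undoing this gave whole reads for 100% of values in each library (tolerance 0.02), and the factors equal median-of-ratios factors in 9 of 9 libraries (tolerance 1e-06). This scaling makes the typical gene equal between libraries.

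One model of 3 group means was fitted with limma 3.58.1 (R 4.3.3, intensity trend) to log2(scaled count + 1) of the 20145 genes with a mean of at least 1, two-sided, with Benjamini-Hochberg adjustment over all of them and a threshold of 0.05. Fold differences on this scale understate the change of rows with few reads. On counts simulated for β-CYP against control (20145 genes), the fit called 100% of genes changed by -2 or 2 on the log2 scale, 84% of those changed by -1 and 94% of those changed by 1, with 16 calls among 19945 unchanged genes. The simulation changed no genes with few reads and gave all genes the same relative spread beyond counting error. Its figures therefore do not cover faint rows or rows of wide spread, such as Mup2 (coefficient of variation 130% in selenite plus β-CYP). The members, gene lists and named genes (every Mup row, and the largest changes of each list or any member of the hormone, regulator and lipocalin lists) were chosen with earlier results of these data known. For rows at 0, folds are bounds with 3 counts per library in place of 0, which cover counting error only. Sequences are from GENCODE M21 and RefSeq (GRCm38.p6), matched by identifier or symbol: 41 of 41 rows had a transcript. Since the files use mm9, no coordinates of Mup genes are given beyond those of the printed promoters. Python 3.11.15 with pandas 2.3.3 and Biopython 1.88 was used for sums and sequences. Reads are not independent molecules. Depth was 28630269 to 36029560 reads per library. Group sums under other scalings were added after seeing the data. Alternatives covered scaling, low-value filter, pseudocount, limma voom, the libraries in the fit, a replicate block and each library left out. A result for 1 listed gene is not reported here.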

Additional observations from a re-analysis of the deposited data

How the results depend on the processing

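Single rows of the near-identical genes depend on an unknown counting rule, and 3 libraries a group leave little to judge spread by. The number of Mup rows called in selenite plus β-CYP against β-CYP, selenite plus β-CYP against control and β-CYP against control stayed within 1.5 times the reported 23, 25 and 11 under every alternative. Leaving out a library in turn gave 18 to 21, 21 to 24 and 10 to 12 rows. The ratio of family sums ran from 0.528 to 0.568, 0.400 to 0.431 and 0.747 to 0.773 when a library was left out. Scaling moved it more: for selenite plus β-CYP over β-CYP it was 0.598 with equal library totals, 0.5003 with equal medians and 0.642 with quantile normalization. Over control it was 0.455 with equal totals, 0.448 with equal totals of the other genes, 0.371 with equal medians and 0.453 with quantile normalization, and for β-CYP over control it was 0.707 with quantile normalization. All of these stay below 1. Equal totals shift the median log2 difference of all genes to 0.14 against β-CYP and 0.15 against control in selenite plus β-CYP, and equal medians shift it to -0.11 and -0.13. Among the Mup rows called, Mup3 alone changed direction, to 0.083 on the log2 scale under quantile normalization for selenite plus β-CYP minus β-CYP, and the cause was not tested. The call of Mup8 in that comparison was lost under 11 settings, those of Mup-ps23, Mup-ps7 and Mup-ps16 under 10, 9 and 8, and that of Mup2 against control under 7 (adjusted p up to 0.134), 5 of which left out a library. Mup-ps15 lost its call under 4 settings against β-CYP and 5 against control, Mup-ps7 under 7 and Mup-ps13 under 2 against control. Among others, calls were gained for Mup10 and Mup-ps6 against β-CYP under 1 and 3 settings, for Mup9 against control under 2, and for Mup14 and Mup18 in β-CYP against control under 2 and 3. Mup19 in β-CYP against control lost its call under quantile normalization and without β-CYP replicate 3 (adjusted p up to 0.0535). Deviations of same-numbered libraries of different groups correlated at -0.011 to 0.033, against -0.040 to 0.023 for different numbers. With 3 libraries a group this check cannot exclude a pairing, and the labels state none. With replicate number as a block, 21, 25 and 11 Mup rows were called.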
